A study of Saccharomyces cerevisiae with 8 samples.

Results

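The aminoacyl-tRNA synthetases of Saccharomyces cerevisiae were followed by ribosome profiling in 4 evolved strains that carry a copy number variant (CNV) at the GAP1 locus. The members are 36 genes out of 6600 protein-coding genes, taken by name from the known enzymes of the family. No measured value entered the rule, but earlier results of these data were known when the members were chosen. They comprise 22 cytosolic enzymes and 14 mitochondrial enzymes, and all 36 passed the filter on low counts. The strains were Trans (DGY1726), with a transposon-mediated duplication and a further CNV on chromosome V, ODIRA_A (DGY1735) and ODIRA_B (DGY1743), each with a triplication attributed to origin-dependent amplification, and ComQuad (DGY1741), with a complex quadruplication. All descend from the FY4/S288C background, carry a GFP and KanMX reporter cassette, and had been evolved under glutamine limitation. Each strain was grown from single colonies at 30 °C in glutamine-limited chemostats, which were held in continuous mode for 24 h at a population doubling time of about 5.8 h, and cycloheximide was added before harvest. There were 2 replicate cultures per strain and 8 libraries in all. Each strain is a single lineage, so a difference between strains belongs to that lineage. Trans and ODIRA_A were isolated from earlier population samples than ComQuad and ODIRA_B, so that the time of isolation and the CNV cannot be told apart between these pairs. The ancestor and the RNA-seq were not analysed here, so every difference below is between evolved strains, and the amount of an mRNA cannot be told apart from its translation.

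An aminoacyl-tRNA synthetase joins an amino acid to its tRNA and so supplies the ribosome with charged tRNA. Yeast has separate sets of enzymes for the cytosol and for the mitochondrial ribosome, all encoded in the nucleus, and a few genes serve both compartments. Uncharged tRNA is sensed by the kinase Gcn2, which leads to more translation of the transcription factor Gcn4 and through it to the transcription of genes for amino acid synthesis and of some synthetases.

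Ribosome profiling sequences the mRNA fragments that ribosomes shield from nuclease, the ribosome protected fragments (RPFs). The libraries held between 3723082 and 11459498 RPFs on coding sequences, with the fewest in ODIRA_B. Within 1 library the members had from 52 RPFs (MSW1, mitochondrial tryptophan enzyme) to 5105 RPFs (ALA1, alanine enzyme), so the mitochondrial genes carry the larger counting error. None of the 36 genes lies in the CNV regions on chromosomes V, VIII and XI, and no stretch of 28 bases from any member's coding sequence, GRS1 and GRS2 included, occurs elsewhere in the reference genome.

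The start of the proteins was a feature that the choice of members did not use. Proteins imported into mitochondria usually begin with a presequence that is rich in basic residues and poor in acidic ones. Among the first 30 residues, the 14 mitochondrial enzymes had a median of 6 lysines and arginines and 1 aspartate or glutamate, and the 22 cytosolic enzymes had medians of 4 and 4. Over 6572 genes both medians were 3. No acidic residue was found in this stretch of 6 of the 14 mitochondrial enzymes and 3 of the 22 cytosolic ones, against 13.5% of all genes. The 3 cytosolic genes were HTS1, VAS1 and YNL247W, the histidine, valine and cysteine enzymes, each of which also supplies the mitochondria from the same gene. Counted from the annotated start codon, other cytosolic genes that serve mitochondria did not share this feature, with 3 acidic residues in ALA1, 4 in GRS1 and 1 in GUS1. The study describes a longer mitochondrial form of ALA1 that begins at an upstream ACG codon, and its start was not counted here. Forms from upstream starts were not examined for any gene, so these counts do not describe them. The compartments overlapped, since 5 cytosolic enzymes had 2 or fewer acidic residues, and lysines and arginines minus acidic residues ran from 2 to 8 in the mitochondrial and from -5 to 6 in the cytosolic enzymes. The first 90 coding bases of the mitochondrial and the cytosolic lysine enzymes and of VAS1 and HTS1 are shown to make this visible, with the codons for lysine and arginine in capitals (RefSeq, build R64, 5′ to 3′).
MSK1 (chrXIV:488386-488475, plus strand): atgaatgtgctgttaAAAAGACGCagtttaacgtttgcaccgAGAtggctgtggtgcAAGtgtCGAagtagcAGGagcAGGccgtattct
KRS1 (chrIV:525440-525529, plus strand): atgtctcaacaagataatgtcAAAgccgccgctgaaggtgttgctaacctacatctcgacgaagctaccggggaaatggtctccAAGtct
VAS1 (chrVII:672186-672275, plus strand): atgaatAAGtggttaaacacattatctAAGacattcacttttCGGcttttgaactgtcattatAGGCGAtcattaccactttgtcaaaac
HTS1 (chrXVI:638930-639019, minus strand): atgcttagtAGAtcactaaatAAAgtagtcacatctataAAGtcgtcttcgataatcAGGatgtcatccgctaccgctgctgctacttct
MSK1 had 8 basic and 0 acidic residues in this stretch, and KRS1 had 2 and 5. VAS1, with 5 and 0, and HTS1, with 4 and 0, resembled the mitochondrial enzyme in this respect. The plot of charged residues places all 14 mitochondrial enzymes at 2 or fewer acidic residues.

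**Figure D1:**
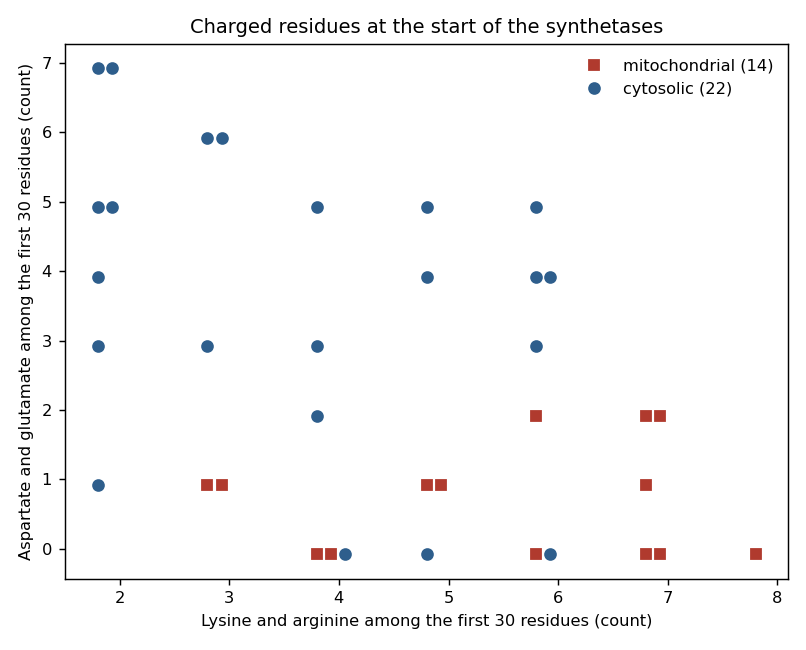
Number of lysine and arginine residues (horizontal axis) and of aspartate and glutamate residues (vertical axis) among the first 30 residues of each synthetase, with points that share a position drawn side by side. The 14 mitochondrial enzymes (squares) have 0 to 2 acidic residues, and the 22 cytosolic enzymes (circles) have 0 to 7.

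Enzymes for the same amino acid in the 2 compartments were mostly distant in sequence. Identity over the aligned residues was lowest for the proline pair YHR020W and AIM10 at 19.6% and highest for the arginine pair YDR341C and MSR1 at 58.8%, with the threonine pair THS1 and MST1 at 46.0%. The glycine paralogs GRS1 and GRS2, both counted among the cytosolic enzymes, were 60.6% identical over 611 aligned residues.

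Levels of different genes were compared as RPFs per length of coding sequence, scaled to the same total over all genes in each library (TPM). Cytosolic enzymes, with 1 exception, had higher mean levels than mitochondrial ones. Their mean TPM over the 8 libraries ran from 12.6 (GRS2) to 163 (SES1, serine enzyme), with a median of 87.7, whereas the mitochondrial enzymes ran from 7.59 (MSE1, glutamate enzyme) to 23.0 (SLM5, asparagine enzyme), with a median of 11.3. The median over 5725 tested genes was 35.0. GRS2 was the exception among the cytosolic genes, since its level lay within the mitochondrial range. Without it the lowest cytosolic mean was 38.0 TPM (VAS1), above the highest mitochondrial one.

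By mean level, SES1 stood first and GRS2 last of the cytosolic genes in all 4 strains, but only the last place was clear of its neighbour in every strain. SES1 had 156 and 143 TPM in Trans, 166 and 175 TPM in ODIRA_A, 186 and 179 TPM in ComQuad and 142 and 160 TPM in ODIRA_B. Both SES1 libraries were above those of the second gene in ODIRA_A alone. In Trans, 1 library of TYS1 exceeded both of SES1, and the libraries of GUS1 overlapped those of SES1 in ComQuad and ODIRA_B, so that the first and second places did not differ beyond the spread of replicates in these 3 strains. The middle of the order was crowded, with 9 genes from GRS1 to ILS1 between 80.1 and 112 TPM. GUS1, the glutamate enzyme, stood at place 2 in both ComQuad and ODIRA_B, against place 10 in Trans and 9 in ODIRA_A. FRS2, the alpha subunit of the phenylalanine enzyme, went the other way, at place 13 in ComQuad and 12 in ODIRA_B, against place 4 in Trans and 3 in ODIRA_A. Among the mitochondrial genes SLM5 and MST1, the threonine enzyme, shared the first and second places in every strain. MST1 was first in ODIRA_A and SLM5 in the other strains. Their libraries overlapped in Trans and ODIRA_A but not in ComQuad and ODIRA_B.

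For the 14 amino acids with an enzyme in each compartment, 15 comparisons could be made because phenylalanine has 2 cytosolic subunits. The cytosolic gene was the higher one in all 8 libraries in each of them. The median ratio of TPM over libraries was smallest for asparagine, with 4.53 for DED81 over SLM5, and largest for glutamate, with 16.3 for GUS1 over MSE1. Single libraries ranged from 3.13 for the proline pair to 25.3 for the glutamate pair.

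**Figure D2:**
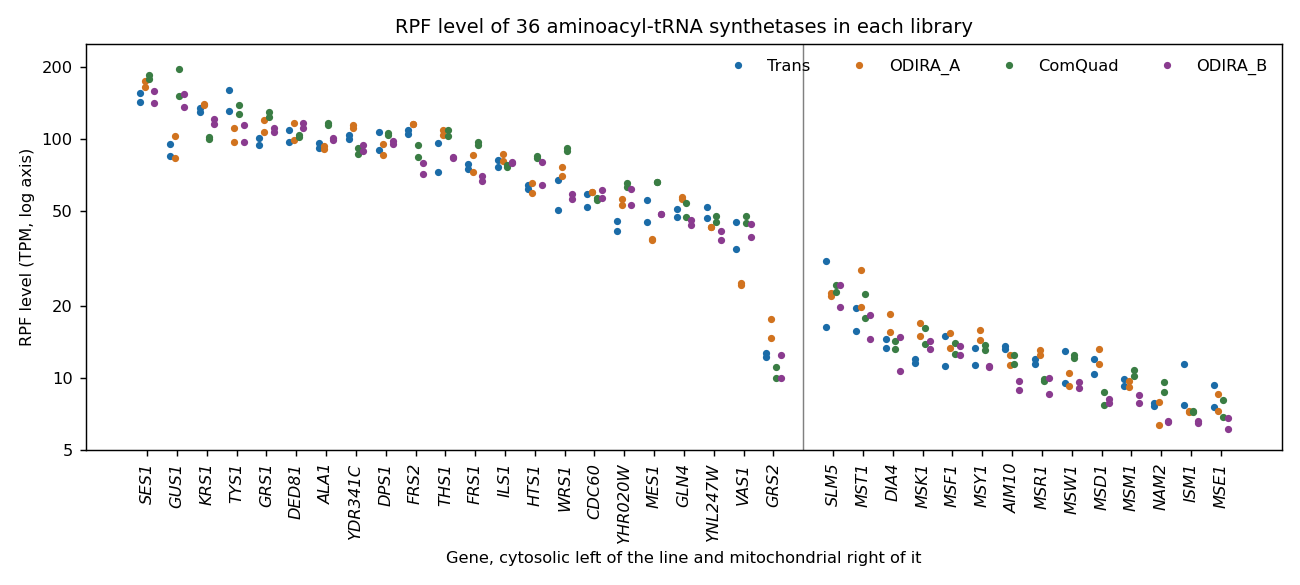
RPF level of each synthetase (TPM, log axis) in each of 8 libraries, coloured by strain, with genes ordered by their mean within the compartment. Of the 22 cytosolic genes left of the line only GRS2, with a mean of 12.6 TPM, falls among the 14 mitochondrial genes right of it.

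To ask whether a strain differed in these enzymes, each was compared with the mean of the other 3 by edgeR's quasi-likelihood test on RPF counts, with p-values adjusted over 5725 genes and a gene called at an adjusted p under 0.05. Abundance between libraries is given as CPM, the RPF count of a gene relative to the TMM-scaled total of its library, and differences are on the log2 scale. Differences within the family were small. Of the 22 cytosolic enzymes 10 were called in at least 1 of the 4 comparisons (45.5%), and of the 14 mitochondrial ones 2 were (14.3%), beside 2903 of 5725 genes (50.7%). The spread over the 4 strain means had a median of 0.34 for the cytosolic and 0.34 for the mitochondrial enzymes, beside 0.56 for all tested genes. The mean absolute difference between replicates had medians of 0.13, 0.17 and 0.18 in the same order. The share of cytosolic enzymes called is thus near the background, and it is the identity of the genes that is described here.

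In Trans, 1 of 22 cytosolic enzymes was higher (TYS1) and 2 were lower (GUS1 and YHR020W), where 9.52% of all genes were called higher and 5.71% lower. Their median difference was 0.00. In ODIRA_A 2 were higher (FRS2 and GRS2) and 3 lower (GUS1, VAS1 and MES1), with 12.1% and 12.5% of all genes and a median of -0.04. In ComQuad 3 were higher (GUS1, MES1 and WRS1) and 3 lower (KRS1, YDR341C and GRS2), with 16.9% of all genes each way and a median of 0.10. In ODIRA_B 1 was higher (GUS1) and 1 lower (FRS2), with 12.0% and 6.55% of all genes and a median of 0.07. The median over all tested genes lay within 0.01 of 0 in each comparison. The 22 genes as a set were thus little shifted in any strain. The 12 cytosolic enzymes called in none of these comparisons, among them the glutamine enzyme GLN4, had differences from -0.28 to 0.25.

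**Figure D3:**
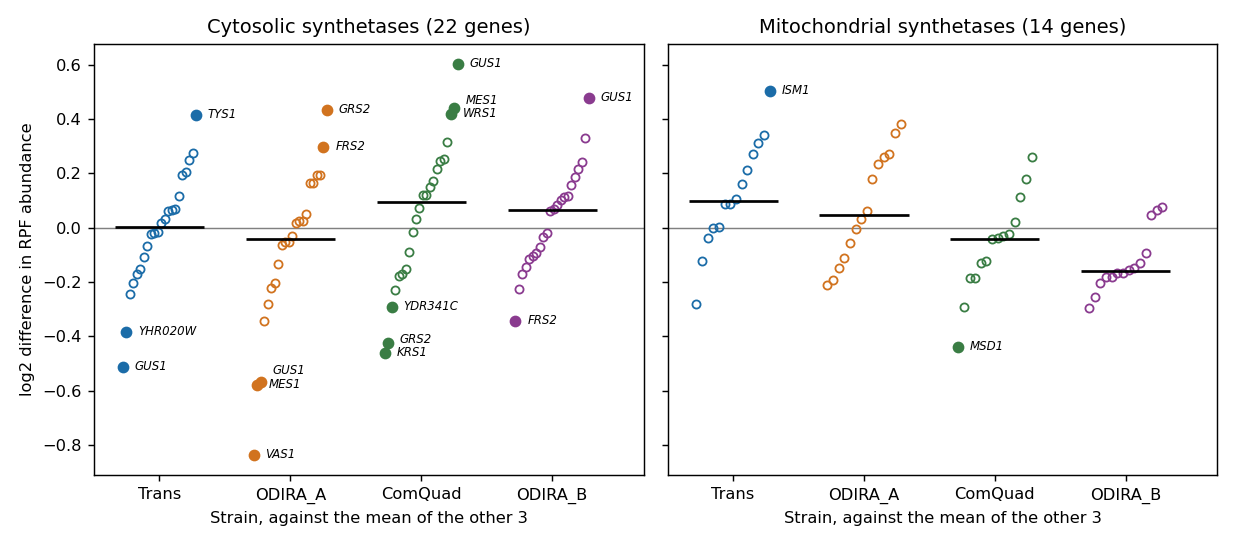
log2 difference in RPF abundance of each synthetase in a strain against the mean of the other 3 strains, for the 22 cytosolic genes (left) and the 14 mitochondrial genes (right). Filled points with a name passed an adjusted p of 0.05, open points did not, and the black bars are medians, which run from -0.04 to 0.10 for the cytosolic genes and from -0.16 to 0.10 for the mitochondrial genes.

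Of these calls in the 4 comparisons, 18 concern the 36 members. With all 8 libraries kept, 14 of them held under every other setting tried. With single libraries left out, which leaves fewer residual degrees of freedom, 17 of the 18 were lost at least once, and only that of VAS1 in ODIRA_A was kept throughout. The libraries concerned are named with each gene.

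GUS1, MES1 and ARC1 encode a complex. Arc1 is a cofactor that binds both the methionine enzyme Mes1 and the glutamate enzyme Gus1 in the cytosol and helps them to bind tRNA, and Gus1 also supplies glutamate to mitochondrial tRNA. GUS1 (YGL245W, chrVII:39023-41149, plus strand) had 282 and 253 CPM in Trans and 240 and 279 CPM in ODIRA_A. It had 410 and 547 CPM in ComQuad and 491 and 406 CPM in ODIRA_B. The strains therefore fell into 2 pairs with no overlap between them, Trans and ODIRA_A at the low level and ComQuad and ODIRA_B at the high one. The difference from the other 3 strains was -0.51 ± 0.14 (SE, adjusted p = 0.035) in Trans, -0.57 ± 0.14 (SE, adjusted p = 0.014) in ODIRA_A, 0.60 ± 0.13 (SE, adjusted p = 0.0051) in ComQuad and 0.48 ± 0.13 (SE, adjusted p = 0.032) in ODIRA_B. Between the single strains it was -0.84 ± 0.17 (SE, adjusted p = 0.0037) for Trans against ComQuad and -0.79 ± 0.17 (SE, adjusted p = 0.0077) for ODIRA_A against ODIRA_B. Trans against ODIRA_A gave 0.04 ± 0.17 (SE, adjusted p = 0.91), and ComQuad against ODIRA_B gave 0.09 ± 0.17 (SE, adjusted p = 0.72). The call was lost in Trans without Trans replicate 2, ODIRA_A replicate 1 or 2, ComQuad replicate 2 or ODIRA_B replicate 1 or 2 (adjusted p of 0.051 to 0.128), in ODIRA_A without ODIRA_A replicate 1 or 2 (adjusted p of 0.065 to 0.138), in ComQuad without ComQuad replicate 2 (adjusted p = 0.15) and in ODIRA_B without ODIRA_A replicate 1, ComQuad replicate 1 or ODIRA_B replicate 1 or 2 (adjusted p of 0.0705 to 0.38). Without ComQuad replicate 2 the difference in ComQuad was 0.38.

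MES1 (YGR264C, chrVII:1019598-1021853, minus strand) was lowest in ODIRA_A and highest in ComQuad. It had 116 and 110 CPM in ODIRA_A and 189 and 196 CPM in ComQuad, against 141 and 176 CPM in Trans and 164 and 153 CPM in ODIRA_B, so that neither extreme overlapped any other strain. It was -0.58 ± 0.11 (SE, adjusted p = 0.0034) in ODIRA_A and 0.44 ± 0.10 (SE, adjusted p = 0.007) in ComQuad against the other 3, and -0.77 ± 0.13 (SE, adjusted p = 0.001) in ODIRA_A against ComQuad. The first of these calls was lost without ODIRA_A replicate 2 (adjusted p = 0.059) and the second without ComQuad replicate 1 or 2 (adjusted p of 0.0678 to 0.0898). ARC1 was the most abundant of the 3 per length and varied least. It had 524 and 532 CPM in ComQuad, where it was highest without passing the test, at 0.24 ± 0.10 (SE, adjusted p = 0.072), against 406 to 476 CPM in the other 6 libraries. The TPM of ARC1 over that of GUS1 accordingly differed between strains, with 2.40 and 1.83 in ComQuad and 1.82 and 2.03 in ODIRA_B, against 2.87 and 3.02 in Trans and 3.64 and 3.12 in ODIRA_A. ARC1 over MES1 was 7.98 and 8.36 in ODIRA_A and between 4.60 and 6.08 in the other 6 libraries.

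**Figure D4:**
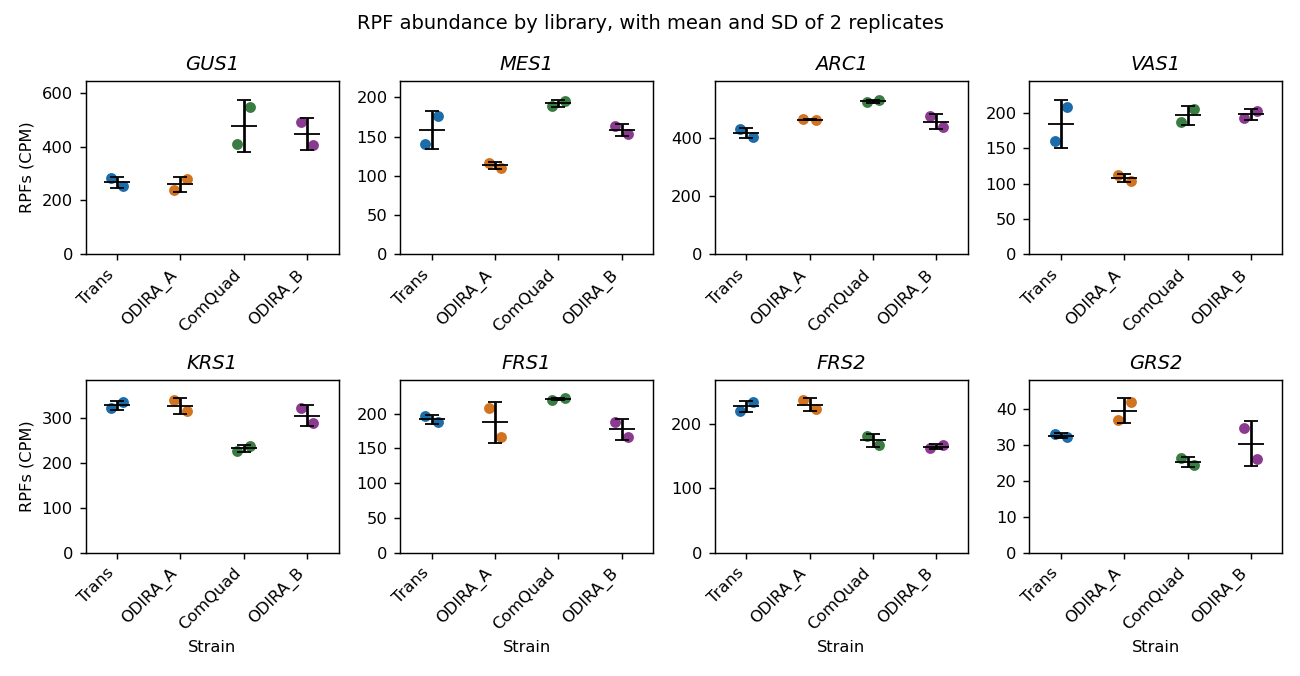
RPF abundance (CPM after TMM scaling, vertical axes from 0) of 8 genes in each library, with points for the 2 replicates and black bars for their mean and SD. GUS1 lies at 240 to 282 CPM in Trans and ODIRA_A and at 406 to 547 CPM in ComQuad and ODIRA_B, and VAS1 lies at 104 to 112 CPM in ODIRA_A and at 160 or more in the other strains.

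The largest difference of any member in the 4 comparisons with the other strains was that of VAS1 (YGR094W, chrVII:672186-675500, plus strand), the valine enzyme of both compartments. It had 112 and 104 CPM in ODIRA_A, against 160 and 209 CPM in Trans, 187 and 206 CPM in ComQuad and 193 and 203 CPM in ODIRA_B. Both ODIRA_A libraries were below all 6 others. The mean was 108 ± 6.17 CPM in ODIRA_A (SD, n = 2) and 193 ± 18.1 CPM in the other strains (SD, n = 6), and the difference was -0.84 ± 0.12 (SE, adjusted p = 7.4e-04) by edgeR. It was called against each other strain singly, at -0.86 ± 0.14 (SE, adjusted p = 8.8e-04) against ComQuad and -0.87 ± 0.14 (SE, adjusted p = 0.0018) against ODIRA_B, and Trans against ODIRA_A gave 0.77 ± 0.14 (SE, adjusted p = 0.015). VAS1 was the only one of the 36 members that edgeR called between Trans and ODIRA_A, where 3.65% of all genes were called. DESeq2 called 3 cytosolic enzymes in this pair, where it called 280 of 5725 genes higher and 98 lower in Trans. The edgeR fit of the 4 libraries of this pair alone did not keep the VAS1 call.

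KRS1 (YDR037W), the lysine enzyme, was lower in ComQuad than in the other strains. It had 226 and 238 CPM in ComQuad, against 321 and 335 CPM in Trans, 338 and 314 CPM in ODIRA_A and 322 and 288 CPM in ODIRA_B. The ComQuad libraries were below all others, with a difference of -0.46 ± 0.10 (SE, adjusted p = 0.0051), a call lost without ComQuad replicate 1 or 2 (adjusted p of 0.0544 to 0.0991). YDR341C, the arginine enzyme, was also lower in ComQuad, at 213 and 208 CPM against 241 to 283 CPM in the other 6 libraries. Its difference was -0.29 ± 0.09 (SE, adjusted p = 0.034), a call lost without ODIRA_A replicate 1, ComQuad replicate 1 or 2 or ODIRA_B replicate 1 or 2 (adjusted p of 0.0566 to 0.234).

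WRS1 (YOL097C), the tryptophan enzyme, was higher in ComQuad. It had 151 and 151 CPM in ComQuad, against 122 and 92.1 CPM in Trans, 134 and 116 CPM in ODIRA_A and 109 and 107 CPM in ODIRA_B. The groups did not overlap, and the difference was 0.42 ± 0.12 (SE, adjusted p = 0.017), a call lost without ComQuad replicate 1 or 2 or ODIRA_B replicate 1 or 2 (adjusted p of 0.0532 to 0.137). The tyrosine enzyme TYS1 (YGR185C) was higher in Trans, with 217 and 268 CPM in Trans against 147 to 208 CPM in the other 6 libraries, although the lower Trans library stood close to the highest of the others. Its difference was 0.41 ± 0.12 (SE, adjusted p = 0.037), a call lost without Trans replicate 2, ODIRA_A replicate 2, ComQuad replicate 1 or 2 or ODIRA_B replicate 1 or 2 (adjusted p of 0.0703 to 0.198), and without Trans replicate 2 it was 0.25. The proline enzyme YHR020W had 131 and 120 CPM in Trans against 140 to 190 CPM in the other 6. Both Trans libraries were the lowest, with a difference of -0.38 ± 0.11 (SE, adjusted p = 0.046), and the call was lost without Trans replicate 2, ODIRA_A replicate 1 or 2, ComQuad replicate 1 or 2 or ODIRA_B replicate 1 or 2 (adjusted p of 0.055 to 0.128).

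FRS1 and FRS2 encode the beta and alpha subunits of the phenylalanine enzyme, a tetramer that holds equal numbers of both. FRS2 (YFL022C, chrVI:93499-95010, minus strand) had 220 and 233 CPM in Trans, 236 and 222 CPM in ODIRA_A, 181 and 167 CPM in ComQuad and 162 and 167 CPM in ODIRA_B. As for GUS1 the strains fell into 2 pairs without overlap, here with Trans and ODIRA_A high. It was 0.30 ± 0.09 (SE, adjusted p = 0.036) in ODIRA_A and -0.34 ± 0.10 (SE, adjusted p = 0.032) in ODIRA_B against the other 3, and between single strains all 4 comparisons across the pairs were called, from 0.38 ± 0.11 (SE, adjusted p = 0.027) for Trans against ComQuad to 0.48 ± 0.11 (SE, adjusted p = 0.013) for ODIRA_A against ODIRA_B. The call in ODIRA_A was lost without ODIRA_A replicate 1 or 2, ComQuad replicate 1 or 2 or ODIRA_B replicate 1 or 2 (adjusted p of 0.074 to 0.184), and that in ODIRA_B without ODIRA_A replicate 1, ComQuad replicate 1 or 2 or ODIRA_B replicate 1 or 2 (adjusted p of 0.0541 to 0.264).

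FRS1 (YLR060W) passed the test in no strain. It had 196 and 187 CPM in Trans, 208 and 166 CPM in ODIRA_A, 220 and 222 CPM in ComQuad and 188 and 167 CPM in ODIRA_B, and its largest difference was 0.25 ± 0.11 (SE, adjusted p = 0.092) in ComQuad. Per length, FRS1 over FRS2 was 1.03 and 1.13 in the ComQuad libraries and 0.982 and 0.846 in those of ODIRA_B, against 0.753 and 0.681 in Trans and 0.746 and 0.633 in ODIRA_A. The ratio was below 1 in 6 of the 8 libraries and above 1 in the 2 of ComQuad.

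GRS1 and GRS2 arose by duplication, and GRS1 supplies the glycine enzyme of both compartments. GRS2 (YPR081C, chrXVI:702114-703970, minus strand) had 37.0 and 41.9 CPM in ODIRA_A and 26.2 and 24.3 CPM in ComQuad, against 33.1 and 32 CPM in Trans and 34.7 and 26.0 CPM in ODIRA_B. The ODIRA_A libraries were above all others, while ComQuad overlapped the lower ODIRA_B library. Its difference was 0.43 ± 0.13 (SE, adjusted p = 0.032) in ODIRA_A and -0.42 ± 0.13 (SE, adjusted p = 0.033) in ComQuad. DESeq2 made neither call, and with edgeR the first was lost without ODIRA_A replicate 1 or 2, ComQuad replicate 1 or 2 or ODIRA_B replicate 2 (adjusted p of 0.069 to 0.256) and the second without ODIRA_A replicate 2, ComQuad replicate 1 or 2 or ODIRA_B replicate 1 (adjusted p of 0.067 to 0.234). GRS1 (YBR121C) ranged only from 265 to 331 CPM and was not called. GRS2 made up 12.1 and 12.9% of the summed TPM of both genes in ODIRA_A, 11.3 and 11.6% in Trans, 10.4 and 8.27% in ODIRA_B and 7.87 and 7.46% in ComQuad.

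Few mitochondrial enzymes were called. In Trans 1 of 14 was higher (ISM1) and 0 lower, with a median difference of 0.10, where 15.2% of all genes were called in either direction. In ComQuad 0 were higher and 1 was lower (MSD1), with a median of -0.04, where 33.8% of all genes were called. In ODIRA_A and ODIRA_B edgeR called 0 of 14, with medians of 0.05 and -0.16, where 24.6% and 18.5% of all genes were called. DESeq2 called 0 in all 4 strains. At an unadjusted p under 0.05 edgeR had 4 for Trans, 3 for ODIRA_A, 2 for ComQuad and 0 for ODIRA_B, beside 31.3%, 37.2%, 43.9% and 32% of all genes in the same order. In ODIRA_B, the strain with the fewest RPFs, the 14 differences ran from -0.30 to 0.08, and 11 were negative.

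ISM1 (YPL040C, chrXVI:475993-479001, minus strand), the isoleucine enzyme, had 32.3 and 48.3 CPM in Trans, against 29.5 and 27.9 CPM in ODIRA_A, 27.9 and 28.4 CPM in ComQuad and 29.1 and 27.7 CPM in ODIRA_B. Both Trans libraries were the highest, but replicate 2 stood well above replicate 1. The difference was 0.50 ± 0.15 (SE, adjusted p = 0.045), or 0.19 without replicate 2. The call was lost with DESeq2 and without Trans replicate 2, ODIRA_A replicate 1 or 2, ComQuad replicate 1 or 2 or ODIRA_B replicate 1 or 2 (adjusted p of 0.0817 to 0.491). The same library also stood apart for SLM5, with 64.3 CPM against 33.6 CPM in replicate 1 of Trans and 41.8 to 50.9 CPM in the other 6. Over all 5725 tested genes the replicates differed most in Trans. The SD of their log2 ratio was 0.43 there, against 0.34 in ODIRA_A, 0.24 in ComQuad and 0.31 in ODIRA_B. MSD1 (YPL104W), the aspartate enzyme, had 19.3 and 22.7 CPM in ComQuad, against 28.6 and 33.2 CPM in Trans, 30.6 and 33.4 CPM in ODIRA_A and 23.3 and 22.6 CPM in ODIRA_B. ComQuad and ODIRA_B overlapped and lay below the other strains. The difference in ComQuad was -0.44 ± 0.13 (SE, adjusted p = 0.028), which DESeq2 did not call and which was lost without ODIRA_A replicate 2, ComQuad replicate 1 or 2 or ODIRA_B replicate 1 or 2 (adjusted p of 0.0501 to 0.308).

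MSE1 (YOL033W, chrXV:263475-265085, plus strand), the mitochondrial glutamate enzyme, is a gene in which the study lists a missense variant in Trans. Its RPFs were 17.0 and 21.1 CPM in Trans, against 15.9 and 17.6 CPM in ODIRA_A, 14.1 and 17.1 CPM in ComQuad and 14.7 and 15.4 CPM in ODIRA_B. The Trans libraries overlapped the others, and the difference was 0.27 ± 0.16 (SE, adjusted p = 0.29), or 0.43 without Trans replicate 1 and 0.11 without Trans replicate 2. The other 11 mitochondrial enzymes had differences within -0.30 to 0.35 in the 4 comparisons.

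Between single strains, the members called were fewest for Trans against ODIRA_A and most for ODIRA_A against ComQuad, as were the genes called overall. In each pair with ComQuad the share called was lower in both compartments than over all genes. Trans and ODIRA_A differed in 1 of 22 cytosolic and 0 of 14 mitochondrial enzymes, where 3.65% of all genes were called. Trans and ComQuad differed in 5 and 1, where 30.7% of all genes were called, and ODIRA_A and ComQuad in 7 and 2, where 33.6% were. Trans and ODIRA_B differed in 3 and 0, where 18.7% of all genes were called. ODIRA_A and ODIRA_B differed in 4 and 0, where 22.4% were, and ComQuad and ODIRA_B in 2 and 0, where 24.6% were. MSR1, the mitochondrial arginine enzyme, was called only in a pair, at 0.41 ± 0.14 (SE, adjusted p = 0.042) in ODIRA_A against ComQuad. In the 4 pairs with 0 mitochondrial calls DESeq2 also made 0. At an unadjusted p under 0.05 edgeR had 2 mitochondrial enzymes for Trans and ODIRA_A and 3 for Trans and ODIRA_B. It had 1 for ODIRA_A against ODIRA_B and 0 for ComQuad against ODIRA_B. At that threshold 21.68%, 32.98%, 35.97% and 37.38% of all genes passed in the same order of pairs. These pairs share libraries and are not independent of each other.

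The summed level of the 22 cytosolic enzymes was 2006 and 2021 TPM in ComQuad, against 1766 to 1851 TPM in the 6 libraries of the other strains. As a percentage of all RPFs on coding sequences the sum was 0.524 and 0.543 in ComQuad, against 0.475 to 0.493 in the other strains. This order was not seen on the TMM scale, where the sum was 4994 and 5247 CPM in ComQuad and 4943 and 5273 CPM in ODIRA_B, against 4626 to 4914 CPM in Trans and ODIRA_A. The 14 mitochondrial enzymes summed to 151 and 156 TPM in ODIRA_B, against 168 to 197 TPM in the other strains. As a percentage of all RPFs on coding sequences they made up 0.0343 and 0.0347 in ODIRA_B, against 0.0387 to 0.0443 in the other strains. On the TMM scale the ODIRA_B sums of 374 and 361 CPM overlapped those of ComQuad, at 368 and 388 CPM.

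GCN4, the transcription factor named above, was itself lower in ODIRA_A and higher in ComQuad. Its coding sequence had 120 and 105 CPM in ODIRA_A and 184 and 177 CPM in ComQuad, against 150 and 131 CPM in Trans and 131 and 144 CPM in ODIRA_B. Neither overlapped the other strains, and the differences were -0.43 ± 0.10 (SE, adjusted p = 0.013) and 0.48 ± 0.10 (SE, adjusted p = 0.0038). The first call was lost without ODIRA_A replicate 2 or ODIRA_B replicate 2 (adjusted p of 0.0503 to 0.15) and the second without ComQuad replicate 1 (adjusted p = 0.07).

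The site bound by Gcn4 was looked for as TGACTCA on either strand between 250 bases before and 50 bases after each annotated start codon. It occurred in 3 of 22 cytosolic genes (13.6%), 0 of 14 mitochondrial genes and 2.75% of 6571 windows. The shorter TGACTC, which every TGACTCA contains and which was added after the first search, occurred in 9 cytosolic genes (40.9%), 0 mitochondrial genes and 8.20% of all windows. The 9 were ALA1, ILS1, GLN4, KRS1, THS1, VAS1, YDR341C, YHR020W and YNL247W, and in GLN4 the match lies within the coding sequence. The matches in 4 of them that were called in some strain are shown with their surroundings, in the direction of the gene and with the matched letters in capitals (RefSeq, build R64). A match on the opposite strand reads TGAGTCA or GAGTCA.
YDR341C (chrIV:1153810-1153839, minus strand): aaaagtgtctaaTGAGTCAgttatttcttt
YHR020W (chrVIII:143801-143830, plus strand): ataagcgatgctTGAGTCActgaatgtctt
KRS1 (chrIV:525294-525323, plus strand): tgaatgatgaaaTGACTCttaatgaacttc
VAS1 (chrVII:672076-672105, plus strand): atttttttagaaGAGTCAcccatacagcct
In ODIRA_A the 9 genes with TGACTC had differences from -0.84 (VAS1) to 0.20 (YDR341C) with a median of 0.03. The 13 without it had a median of -0.05. In ComQuad the medians were -0.01 with and 0.12 without. Of the 9 genes with the motif 0 were called higher and 2 lower, and of the 13 without it 3 higher and 1 lower. Among all genes 16.9% were called each way in that strain. The neighbour DED81 is counted as without a match, although the match of YHR020W lies just beyond its window. Whether Gcn4 acts on any of these genes was not tested. A match in letters is a description and not a measured binding site.

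Among 13 genes that work with the synthetases, 1 was called higher and 1 lower in Trans, 0 higher and 1 lower in ODIRA_A, and 3 higher and 3 lower in ComQuad. In ODIRA_B edgeR and DESeq2 called 0, and edgeR had 2 at an unadjusted p under 0.05. The share called among all genes in each direction is given above for each strain. In ComQuad the 3 higher ones were GCN4, GCN20, a partner of the Gcn2 activator Gcn1, and DTD1, which removes D-amino acids from tRNA. The 3 lower ones were the mitochondrial TUF1, the elongation factor that brings charged tRNA to the ribosome, and PET112 and GTF1, subunits of the amidotransferase that makes glutaminyl-tRNA there in place of a mitochondrial glutamine enzyme. The third subunit, HER2, was not called in ComQuad, at -0.19 ± 0.13 (SE, adjusted p = 0.29), and neither was FMT1, which formylates the mitochondrial initiator tRNA, at 0.24 ± 0.18 (SE, adjusted p = 0.35). These ComQuad calls were lost for DTD1 without ComQuad replicate 1 or 2 (adjusted p of 0.0503 to 0.0556), for PET112 without ODIRA_A replicate 2, ComQuad replicate 1 or 2 or ODIRA_B replicate 1 (adjusted p of 0.0673 to 0.278), for GTF1 without ComQuad replicate 1 or 2 (adjusted p of 0.0873 to 0.111), and for GCN20 with DESeq2 and without ODIRA_A replicate 1 or 2, ComQuad replicate 1 or 2 or ODIRA_B replicate 1 or 2 (adjusted p of 0.0737 to 0.243). TUF1 had 133 and 144 CPM in ComQuad, against 234 and 376 CPM in Trans, 233 and 250 CPM in ODIRA_A and 219 and 214 CPM in ODIRA_B. The ComQuad libraries were below all others, with a difference of -0.86 ± 0.16 (SE, adjusted p = 0.0021) that was kept with every library left out in turn. In Trans TUF1 was 0.66 ± 0.15 (SE, adjusted p = 0.016), a call lost without Trans replicate 2 (adjusted p = 0.11), when the difference was 0.28. GCN20 had 85.8 and 85.8 CPM in ComQuad, which overlapped 82.4 and 87.8 CPM in ODIRA_B, against 69.0 and 69.4 CPM in ODIRA_A. In Trans GCN20 had 62.6 and 49.8 CPM, below all others, and was called lower at -0.50 ± 0.11 (SE, adjusted p = 0.017). That call was lost without Trans replicate 2, ComQuad replicate 1 or 2 or ODIRA_B replicate 2. GCN2 itself was called in no strain.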

How the data were processed

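Ribosome profiling libraries of 4 strains, with 2 replicates each, were analysed. The authors selected fragments by size, removed rRNA, tRNA and snRNA reads, aligned the rest with STAR, and counted reads on the same strand with bedtools. The deposited values are whole-number counts per feature of the R64-1-1 annotation, and how multi-mapping reads were treated is not given in the sources used here. CDS counts were summed per gene and used as deposited. The 5725 genes that reached 10 RPFs in 2 or more libraries entered the quasi-likelihood F test of edgeR 4.0.16 under R 4.3.3 (TMM, Benjamini-Hochberg), in 1 fit of 8 libraries with 4 residual degrees of freedom and a common biological coefficient of variation of 0.123. SE is the log2 difference over the root of F. TPM is over all genes. The labels tie the replicate numbers to no shared culture or day, and libraries of the same number correlated above 0.1 in 3 of 6 pairs of strains and below 0 in the other 3, so the numbers were not used as pairs.

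Values by library are given for up to 3 called members per strain and compartment with both libraries beyond all others, the GRS, FRS and Arc1 groups, MSE1 and GCN4. YDR341C, MSD1, SLM5, TUF1 and GCN20 were added after their values were seen. The members, the lists and the rule were chosen with earlier results of these data known. Proteins were translated from the R64 genome, whose 17 chromosome lengths equal those in the tables, and aligned globally with penalised end gaps. The fitting code was tested on simulated data. Alternatives were DESeq2 1.42.0, RLE factors, TMM factors from chromosomes other than V, VIII and XI, no filter, at least 10 RPFs in every library, counts on gene features, a replicate block, fits of the 4 libraries of a pair alone, and omission of every library in turn.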

Additional observations from a re-analysis of the deposited data

How the results depend on the processing

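Other processing with all 8 libraries changed few calls of single genes. Of 210 values of single genes 203 kept direction and call, 7 lost the call and 0 reversed. With DESeq2, 0 mitochondrial enzymes were higher in Trans, 0 were lower in ComQuad and 1 differed between ODIRA_A and ComQuad, and 1 cytosolic enzyme was higher in ODIRA_A and 3 differed between Trans and ODIRA_A. With at least 10 RPFs in every library, 1 mitochondrial enzyme was higher in ODIRA_A. Replicate numbers correlated between -0.13 and 0.17, and with the replicate block 0 mitochondrial enzymes were higher in Trans and 1 in ODIRA_A, and ISM1 in Trans and GCN20 in ComQuad lost their calls. Fits of only the 4 libraries compared moved several counts. Trans and ODIRA_A then differed in 0 cytosolic enzymes, Trans and ComQuad in 2 cytosolic and 0 mitochondrial, and Trans and ODIRA_B in 1 cytosolic. ODIRA_A and ODIRA_B differed in 1 mitochondrial enzyme, and ComQuad and ODIRA_B in 6 cytosolic ones, against 2 in the main fit.

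Leaving out 1 library left fewer residual degrees of freedom, and 94 of 240 values of single genes lost their call, 5 gained one and 0 reversed. Cytosolic enzymes called higher then numbered 0 to 4 in Trans, 0 to 3 in ODIRA_A, 0 to 5 in ComQuad and 0 to 3 in ODIRA_B, and those called lower 0 to 4, 1 to 6, 0 to 4 and 0 to 2 in the same order of strains. Mitochondrial enzymes called higher numbered 0 to 3 for Trans and 0 to 2 for ODIRA_A. Those called lower in ComQuad numbered 0 to 2. In pairs, cytosolic calls ranged from 0 to 7 for Trans and ODIRA_A, 0 to 7 for Trans and ComQuad, 0 to 5 for Trans and ODIRA_B, 3 to 11 for ODIRA_A and ComQuad, 1 to 4 for ODIRA_A and ODIRA_B and 0 to 5 for ComQuad and ODIRA_B. Mitochondrial calls ranged from 0 to 2, 0 to 3, 0 to 3, 0 to 2 and 0 to 1 for the first 5 of these pairs. The median difference of the cytosolic enzymes lay between -0.064 and 0.029 in ODIRA_A and between -0.015 and 0.11 in ODIRA_B, and that of the mitochondrial enzymes between 0.064 and 0.20 for Trans, between 0.016 and 0.11 for ODIRA_A and between -0.11 and -0.0014 for ComQuad. The cause was not tested. Within 1 library the mitochondrial enzymes had from 52 to 516 RPFs and the cytosolic ones from 93 to 5105.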
